A study of Bos taurus with 8 samples.

Results

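The 7 mature microRNAs (miRNAs) described here, measured by small RNA sequencing of the rumen fluid of cattle, are the bovine entries of the miR-10, miR-99, miR-100 and miR-125 families. The rule that picks them uses their family names: bta-miR-10a and bta-miR-10b, bta-miR-99a-5p, bta-miR-99b and bta-miR-100, and bta-miR-125a and bta-miR-125b. They are 7 of the 565 bovine and human miRNA entries listed in any library, and all 7 were among the 377 entries (268 bovine and 109 human) that reached 10 reads in some library. The samples came from 4 non-lactating Holstein cows with a rumen cannula and a mean age of 10 years. Each cow gave 1 library on a forage diet without concentrate (0%), at day 7 of that diet, and 1 on the high-grain (HG) diet, on day 1 of feeding 65% concentrate, both taken 4 h after feeding. All cows thus met the diets in the same order, so that diet and time cannot be told apart. Rumen fluid holds feed, microbes and shed host cells, and no library was made from one host cell type.

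MiRNAs are short RNAs that guide Argonaute proteins to messenger RNAs, mostly through the bases at their 5′ end, called the seed. The genes of miR-10 lie within the HOX clusters, whose protein-coding genes set the pattern of the body axis. The miR-99 and miR-100 family is closely related to miR-10 in sequence, and both are often treated as branches of a single ancient family. MiR-125 is the vertebrate relative of lin-4, the first miRNA described in worms, and it sits beside let-7 and miR-99 or miR-100 genes in clusters that are copied across vertebrate genomes. MiR-99a, miR-100, miR-125b and miR-10b are known as miRNAs of connective tissue, muscle and epithelium.

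The positions listed for the entries on the bovine genome UMD3.1 show these clusters. The mature bta-miR-10a maps to chr19:38549275-38549297 on the plus strand and bta-miR-10b to chr2:20797625-20797647 on the minus strand. In the RefSeq annotation of ARS-UCD2.0, used here for neighbours only, MIR10A lies within HOXB3 beside HOXB4, and MIR10B lies within HOXD4 beside HOXD8. On the plus strand of chromosome 18, bta-miR-99b at chr18:58014874-58014895 is followed by bta-let-7e at chr18:58015043-58015063 and bta-miR-125a at chr18:58015549-58015571. The starts of bta-miR-99b and bta-let-7e are 169 bp apart and those of bta-let-7e and bta-miR-125a 506 bp apart. On the minus strand of chromosome 1, bta-miR-99a-5p at chr1:19931197-19931217 and bta-let-7c at chr1:19930469-19930490 are 728 bp apart. On the minus strand of chromosome 15, bta-miR-100 at chr15:33353407-33353428 and bta-miR-125b at chr15:33298829-33298850 are 54.6 kb apart, with MIRLET7A-2 between them in the RefSeq annotation. The position given for bta-miR-125b is that of the precursor bta-mir-125b-1, and a further gene, MIR125B-2, lies beside MIR99A and MIRLET7C in the RefSeq annotation. Its reads can therefore not be assigned to the chromosome 15 cluster alone. Both bta-miR-125b and bta-miR-99a-5p carry a mark for duplicate entries in the deposited tables, whose meaning the sources used here do not give.

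Reads per library ran from 1407364 to 4972757, of which 6.67% to 29.3% were assigned to miRNAs. This left 300116 to 522804 miRNA reads per library, 331864 to 522804 on forage and 300116 to 390774 on HG. Levels are given as reads per 1000000 miRNA reads (RPM) unless another scale is named. One library, HG replicate 2, stood apart from the other 7 across the miRNAs as a whole, so that the results it moves are also given without it. Counting errors below cover the counting of reads only. The intervals of the diet fold changes come from the edgeR fit and also hold the spread between libraries.

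All 7 miRNAs were detected in each of the 8 libraries, with 282 to 1930 reads per entry and library. By their total over the libraries, bta-miR-125b had 10941 reads (place 47 of 268 bovine entries), bta-miR-125a 10072 (51), bta-miR-99a-5p 8242 (56), bta-miR-100 5146 (74), bta-miR-10b 4788 (77), bta-miR-10a 3174 (90) and bta-miR-99b 3068 (94). Together they made up 1.40% ± 0.0293 (SD, n = 4) of the miRNA reads on forage and 1.42% ± 0.0781 (SD, n = 4) on HG. No member stood above place 47 by these counts.

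In rumen fluid the order of the levels was bta-miR-125b, bta-miR-125a, bta-miR-99a-5p, bta-miR-100, bta-miR-10b, bta-miR-10a and bta-miR-99b. The mean over the 8 libraries fell from 3390 ± 310 RPM (SD) for bta-miR-125b to 959 ± 102 RPM for bta-miR-99b. Bta-miR-99a-5p (2559 ± 84.7 RPM) was above bta-miR-100 (1604 ± 185 RPM) in 8 of 8 libraries without overlap of the ranges. Bta-miR-10b (1505 ± 167 RPM) was above bta-miR-10a (990 ± 93.4 RPM) in the same way. The other neighbours in this order overlapped over the 8 libraries. Bta-miR-125b was above bta-miR-125a (3126 ± 278 RPM), and bta-miR-125a above bta-miR-99a-5p, in 7 of 8 libraries each. Bta-miR-100 was above bta-miR-10b in 7 of 8 and bta-miR-10a above bta-miR-99b in 6 of 8. Without HG replicate 2, bta-miR-125a (3013 to 3455 RPM) was above bta-miR-99a-5p (2465 to 2631 RPM) in 7 of 7 libraries with no overlap. Bta-miR-100 was then above bta-miR-10b in 7 of 7, with ranges that still overlapped, as did those of the other 2 pairs, which were in order in 6 of 7 libraries each.

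Part of this order depends on how reads that fit several entries are counted. The authors counted such a read in full at each entry, and gave beside it a count divided by the number of entries. For bta-miR-99b and bta-miR-100, the human entries hsa-miR-99b-5p and hsa-miR-100-5p held the same number of reads in each of the 8 libraries. The divided counts of bta-miR-99a-5p (4113 of 8242 reads), bta-miR-99b (1534 of 3068), bta-miR-100 (2565 of 5146) and bta-miR-125b (5508 of 10941) were about 50% of the full ones. Those of bta-miR-10a, bta-miR-10b and bta-miR-125a kept at least 99.78% of their reads in every library. With divided counts bta-miR-125a stood highest of the 7, at place 41 of 268, and bta-miR-125b stood below it at place 55. Likewise bta-miR-10b, at place 58, then stood above bta-miR-99a-5p at place 60. Bta-miR-100, at place 80, fell below both bta-miR-10b and bta-miR-10a at place 71, so that its place above the miR-10 pair holds for the full counts only. No human entry of miR-10a, miR-10b or miR-125a was listed, so that the divided order also follows which human entries are listed. Bta-miR-10a and bta-miR-10b, which differ little in sequence, shared almost no reads in this counting.

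**Figure D1:**
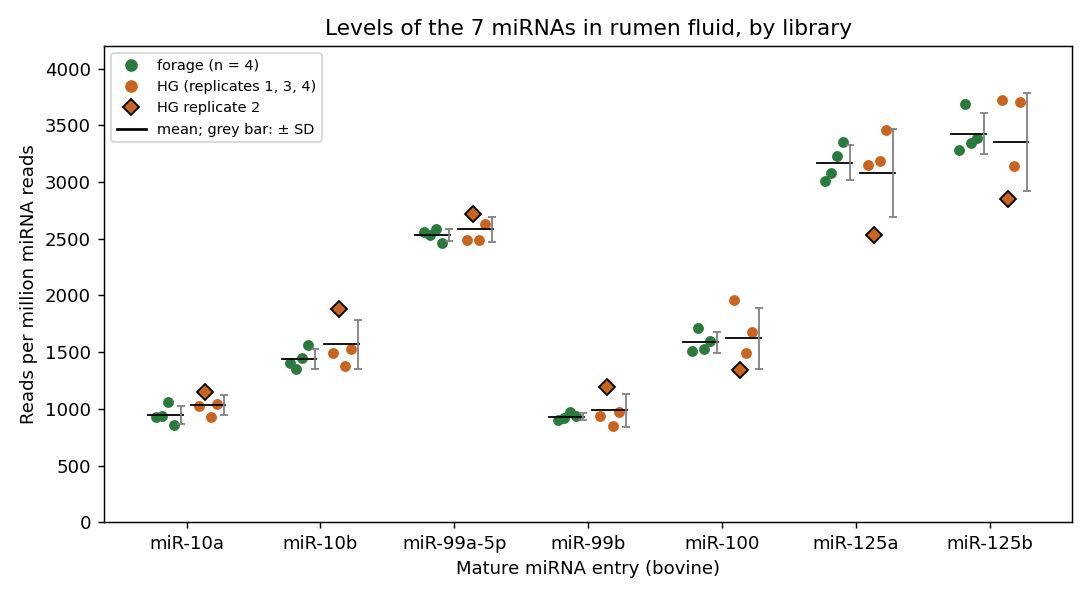
RPM of miRNA reads (y axis) of each miRNA (x axis) in the 4 forage and 4 HG libraries, 1 point per library, with the mean (black line) and SD (grey bar) of each diet. The diets overlap for all 7 miRNAs, and HG replicate 2 (diamond) is the highest library for miR-10a, miR-10b, miR-99a-5p and miR-99b and the lowest for miR-100, miR-125a and miR-125b.

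Opposite arms of these precursors were listed for miR-99a and miR-99b, with few reads. Bta-miR-99a-3p had 2 reads in forage replicate 3 and none listed in another library. The entry hsa-miR-99b-3p had 28 reads, with 2 to 8 in each of 7 libraries. The tables list no count below 2, so that a missing entry may hold a single read. The other HOX cluster miRNAs looked for were also rare, with 22 reads of bta-miR-196a and 43 of bta-miR-196b over all libraries, while bta-miR-615 was not listed.

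For the miR-10 pair, both of which lie in HOX clusters, levels on the 2 diets overlapped. Bta-miR-10a had 927, 935, 1057 and 859 RPM in forage replicates 1 to 4 and 1026, 1145, 926 and 1044 RPM in HG replicates 1 to 4. Bta-miR-10b had 1402, 1352, 1445 and 1561 RPM on forage and 1489, 1877, 1382 and 1528 RPM on HG. In both miRNAs the highest of all libraries was HG replicate 2, and the other HG libraries lay within the forage range. The mean of bta-miR-10a was 944 ± 82.4 RPM (SD, n = 4) on forage and 1035 ± 89.7 RPM on HG, or 999 ± 63.3 RPM on HG without replicate 2. That of bta-miR-10b was 1440 ± 89.0 RPM on forage and 1569 ± 214 RPM on HG, or 1466 ± 75.7 RPM without replicate 2.

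For the miR-99 and miR-100 family, bta-miR-99a-5p varied least of the 7. It had 2560, 2529, 2587 and 2465 RPM on forage and 2492, 2719, 2492 and 2631 RPM on HG. Outside HG replicate 2, its coefficient of variation over 7 libraries was 2.34%, under the 3.15% that counting of its reads alone gives on average. Bta-miR-99b had 898, 918, 971 and 934 RPM on forage and 940, 1190, 847 and 974 RPM on HG. Its coefficient of variation over the 7 libraries was 4.76% beside 5.21% from counting. Bta-miR-100 had 1512, 1714, 1524 and 1600 RPM on forage and 1963, 1345, 1494 and 1680 RPM on HG. It was highest in HG replicate 1 and lowest in HG replicate 2, so that the HG libraries spread on both sides of the forage libraries. With 10.1% over the 7 libraries beside 3.91% from counting, it varied most of the 7.

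For the miR-125 pair, the HG libraries again spread around the forage libraries. Bta-miR-125a had 3013, 3081, 3232 and 3357 RPM on forage and 3149, 2535, 3189 and 3455 RPM on HG. Bta-miR-125b had 3284, 3692, 3342 and 3387 RPM on forage and 3722, 2847, 3140 and 3708 RPM on HG. For both, HG replicate 2 was the lowest library. Over the other 7 libraries the coefficient of variation was 4.79% for bta-miR-125a and 6.82% for bta-miR-125b, beside 2.80% and 2.70% from counting.

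None of the 7 miRNAs differed between forage and HG beyond the spread between cows. In the model with cow and diet over all 377 entries (edgeR's quasi-likelihood test with Benjamini-Hochberg adjustment), no entry was called for the diet (0.0%), and 9 entries (2.39%) had an unadjusted p below 0.05, none of them a member. DESeq2 called 0 entries as well, with 3 at an unadjusted p below 0.05. The members' log2 fold changes, HG over forage, had a median of 0.08, beside 0.03 over all entries, and 7 of 7 members and 210 of 377 entries had a positive value. For 6 of the 7 members the sign turned under some alternative, bta-miR-10a being the exception. No member had forage and HG levels that did not overlap, beside 15 of 377 entries (3.98%).

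The fold changes were small in size with intervals of differing width. For bta-miR-10a the log2 fold change was 0.18 (SE 0.12, 95% interval −0.12 to 0.49, adjusted p = 0.788, edgeR), with 3 of 4 cows higher on HG. For bta-miR-10b it was 0.17 (SE 0.14, −0.17 to 0.51, adjusted p = 0.788, edgeR), with 2 of 4 cows higher. These 2 had the highest values of the 7, with intervals that include 0. Bta-miR-99b had 0.13 (SE 0.13, −0.21 to 0.46, adjusted p = 0.830, edgeR; 3 of 4 cows higher), bta-miR-99a-5p 0.08 (SE 0.08, −0.12 to 0.27, adjusted p = 0.830, edgeR; 2 of 4) and bta-miR-100 0.07 (SE 0.10, −0.19 to 0.32, adjusted p = 0.841, edgeR; 2 of 4). The miR-125 pair had values near 0, with 0.00 for bta-miR-125a (SE 0.06, −0.14 to 0.14, adjusted p = 0.996, edgeR) and 0.01 for bta-miR-125b (SE 0.08, −0.19 to 0.21, adjusted p = 0.953, edgeR), each with 2 of 4 cows higher on HG. Bta-miR-125a thus had the narrowest interval around no change.

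Without replicate 2 of both diets, the fold changes of 3 members turned to slightly negative values: bta-miR-10b −0.003 (95% interval −0.12 to 0.12), bta-miR-99a-5p −0.001 (−0.10 to 0.10) and bta-miR-99b −0.03 (−0.19 to 0.14). The interval became narrower for each of the 7. Bta-miR-100 then had the largest value, 0.14 (−0.03 to 0.32), with an adjusted p of 0.722 in edgeR. In this setting 2 of 361 entries were called for the diet, neither of them a member.

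**Figure D2:**
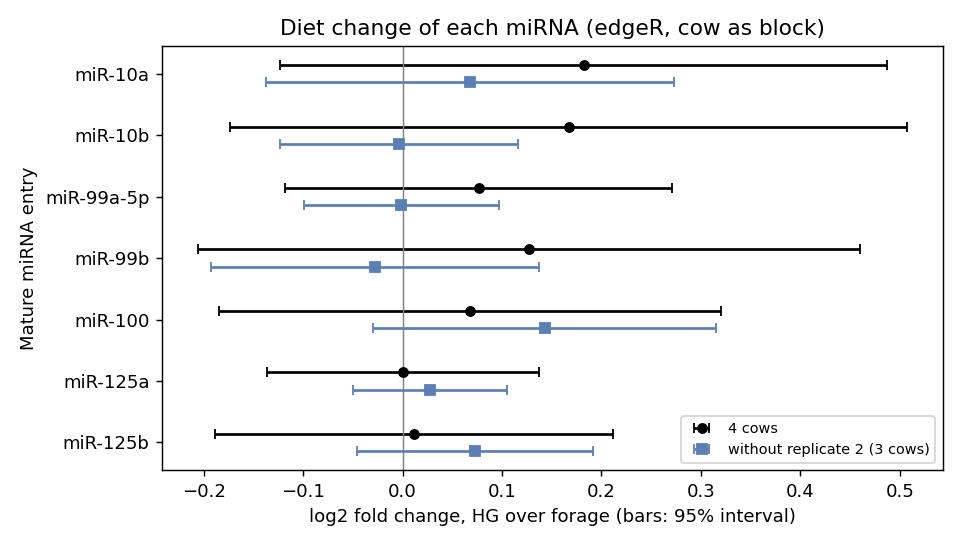
Log2 fold change HG over forage (x axis) of each miRNA (y axis) from edgeR with cow as a block, with 4 cows (black) and without replicate 2 of both diets (blue); bars are 95% intervals. All 14 intervals include 0, and miR-10a, miR-10b, miR-99a-5p and miR-99b lie nearer to 0 without replicate 2.

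Nor was a member called for a difference between cows. The test of the cow terms in the same fit called 0 of 377 entries (0.0%), with 9 at an unadjusted p below 0.05, and DESeq2 called 0, with 6 at an unadjusted p below 0.05. The members had an adjusted p of 0.901 each (edgeR), with unadjusted values from 0.205 for bta-miR-125a to 0.665 for bta-miR-125b. Without replicate 2 of both diets, bta-miR-125a had an unadjusted p of 0.0159 and an adjusted p of 0.476 for the cow (edgeR).

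By family, the share of miRNA reads on forage and HG was 0.239% ± 0.0096 and 0.260% ± 0.0301 for miR-10, 0.505% ± 0.0086 and 0.519% ± 0.0246 for miR-99 and miR-100, and 0.660% ± 0.0218 and 0.644% ± 0.0783 for miR-125 (SD, n = 4 each). For miR-125 the lower HG mean came from HG replicate 2 (0.538%): without it the HG mean was 0.679% ± 0.0424 (n = 3), above that of forage. For miR-10 it was 0.247% ± 0.0139 and for miR-99 and miR-100 0.517% ± 0.0297 without that library, still above forage. With divided reads, as a share of all divided miRNA reads, miR-10 lay close to miR-99 and miR-100. Over the 8 libraries miR-10 had 0.287% to 0.388% and miR-99 and miR-100 had 0.303% to 0.339%, while miR-125 stayed above both with 0.509% to 0.669%. MiR-10 was above miR-99 and miR-100 in HG replicate 2 (0.388% against 0.337%) and below in the other 7. The summed share of the 7 was 0.0197 percentage points higher on HG, with 2 of 4 cows higher (exact paired permutation test over cows, two-sided, p = 0.75, where the smallest p that 4 cows can give is 0.13). Without replicate 2 of both diets the difference was 0.0451 percentage points, and without replicate 1 or 4 it was negative (−0.0131 and −0.0022). The sum ran from 1.36% to 1.42% on forage and from 1.35% to 1.502% on HG, so that the HG range took in the whole forage range. Relative to all reads of a library, including those of no miRNA, the sum was 2430 ± 1243 RPM on forage and 1910 ± 1224 RPM on HG. On that scale the forage mean was the higher one, and the SD of each diet was larger than the difference.

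HG replicate 2 split the 7 miRNAs, with the miR-10 pair on one side, the miR-125 pair on the other and the miR-99 and miR-100 family divided between them. On the scale of miRNA reads it was above the range of the other 7 libraries for bta-miR-10a, bta-miR-10b, bta-miR-99a-5p and bta-miR-99b and below it for bta-miR-100, bta-miR-125a and bta-miR-125b. Among the 353 entries with reads in all libraries, it was above the others for 93 (26.3%) and below them for 180 (51.0%). The median entry was shifted by −0.23 on the log2 scale there, so the members were also read on TMM-normalized counts per 1000000 (CPM), on which that median shift was −0.02.

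On TMM-normalized CPM the 4 high members stayed high, and for the other 3 the picture depended on the scale. Bta-miR-10a had 857 CPM in HG replicate 2 and 557 to 688 CPM in the other 7 libraries, a log2 ratio to their median of 0.49. Bta-miR-10b had 1404 CPM against 884 to 1012 (0.58), bta-miR-99b 890 against 546 to 635 (0.56) and bta-miR-99a-5p 2034 against 1598 to 1714 (0.31). Bta-miR-125a was just below the others with 1896 against 1938 to 2252 CPM (−0.12). Bta-miR-100 with 1006 against 964 to 1271 CPM (−0.04) and bta-miR-125b with 2130 against 2026 to 2416 CPM (−0.04) lay within the range of the others. The upper quartile of the log2 ratio over the 353 entries was 0.43, and bta-miR-10a, bta-miR-10b and bta-miR-99b were above it, at places 82, 66 and 70 from the highest. HG replicate 2 was above the others for 126 entries (35.7%) and below for 109 (30.9%) on this scale, so that leaving their range was common among all entries.

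**Figure D3:**
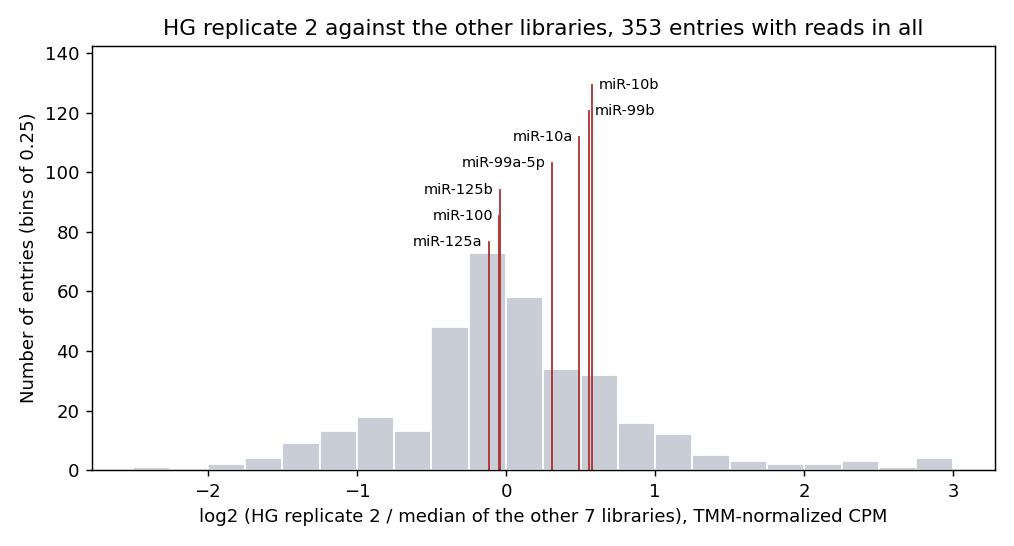
Histogram of the log2 ratio of HG replicate 2 to the median of the other 7 libraries on TMM-normalized CPM (x axis) over the 353 entries with reads in all libraries (y axis, number of entries), with the 7 miRNAs as red lines of arbitrary height. MiR-10b, miR-99b, miR-10a and miR-99a-5p lie right of 0 (0.31 to 0.58), and miR-125b, miR-100 and miR-125a close to it (−0.12 to −0.04).

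The marker lists of cell types moved in the same library. The erythrocyte miRNAs (bta-miR-451, bta-miR-144 and bta-miR-486) summed to 14.98% of miRNA reads in HG replicate 2 and to 19.8% to 20.6% in the other 7, and each of the 3 was below the range of the others. The 4 leukocyte miRNAs summed to 1.70% against 2.13% to 2.18%, with 3 below the range of the others and 1 above it. The summed level of the tissue lists was higher. It was 9.03% against 6.52% to 7.02% for fibroblasts and smooth muscle, where 4 of 6 miRNAs were above the others, none below and 2 within. It was 2.80% against 2.04% to 2.13% for epithelium, where 4 of 6 were above, 1 below and 1 within (the list has 7, and bta-miR-203 was not among the tested entries). For endothelium it was 0.767% against 0.491% to 0.549%, with both bta-miR-126-3p and bta-miR-126-5p above. The part of these cell types in the levels of the 7 miRNAs was not tested, and fewer cells of a type and less RNA per cell cannot be told apart in such samples.

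Ratios of reads within a library do not depend on the scaling between libraries, and they showed which cluster neighbours kept together. In the chromosome 18 cluster, bta-miR-99b and bta-let-7e kept their ratio in HG replicate 2, with 1.43 against 1.32 to 1.71 in the other 7 libraries. Bta-miR-125a, at the other end of this cluster, did not: its ratio to bta-let-7e was 3.04 against 4.42 to 5.75. The ratio of bta-miR-99b to bta-miR-125a was accordingly 0.470 in that library and 0.266 to 0.301 in the others. This is 0.70 higher on the log2 scale than the mean of the other 7, with a counting error (SE) of 0.09 for the ratio in that library. Thus 2 miRNAs whose starts lie 675 bp apart on one strand changed their ratio in 1 library and kept it within a narrow range in 7. The ratio alone does not tell which of the 2 moved.

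In the chromosome 15 cluster, the ratio of bta-miR-100 to bta-miR-125b varied least of the 7 ratios over the 8 libraries. It was 0.460, 0.464, 0.456 and 0.472 on forage (0.463 ± 0.007, SD) and 0.527, 0.472, 0.476 and 0.453 on HG. HG replicate 2 was within the range of the others here, and HG replicate 1 was the highest. Without HG replicate 2, bta-miR-99b to bta-miR-125a varied less, with an SD of 0.0687 on the log2 scale beside 0.0748 for bta-miR-100 to bta-miR-125b. Since bta-miR-125b also has a gene beside MIR99A, this ratio is not one of the chromosome 15 cluster alone. These 2 miRNAs also correlated across the libraries on log2 TMM-normalized CPM, with r = 0.866 over 8 libraries and 0.860 without HG replicate 2, given as a description, since both share the libraries and their scaling.

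On chromosome 1, the ratio of bta-miR-99a-5p to bta-let-7c was 1.90 in HG replicate 2 and 1.44 to 1.71 in the others. Both bta-let-7c and bta-let-7e share reads with other let-7 entries. The divided count of bta-miR-99a-5p is about 50% of its full one, and the entry that shares its reads is not given. With divided counts the difference between the diets in the log2 ratio of bta-miR-99a-5p to bta-let-7c turned sign (0.03), while that of bta-miR-99b to bta-let-7e was −0.08, beside −0.07 with full counts. Between clusters, bta-miR-99a-5p to bta-miR-125b was 0.955 in HG replicate 2 against 0.670 to 0.794. The paralogs bta-miR-10a and bta-miR-10b, which lie on different chromosomes, had a ratio of 0.610 there, within the 0.550 to 0.731 of the other libraries.

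The ratios did not separate the diets. The mean log2 differences, HG minus forage, ran from −0.19 for bta-miR-125a to bta-let-7e up to 0.12 for bta-miR-99b to bta-miR-125a, and the diets overlapped in all 7. Without replicate 2 of both diets these 2 values turned sign, to 0.05 and −0.05, as did that of bta-miR-99a-5p to bta-miR-125b, from 0.07 to −0.07. The exact paired permutation test over 4 cows (two-sided) gave p from 0.375 to 0.875, each 0.875 after adjustment over the 7 ratios, and the smallest p it can give is 0.13.

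**Figure D4:**
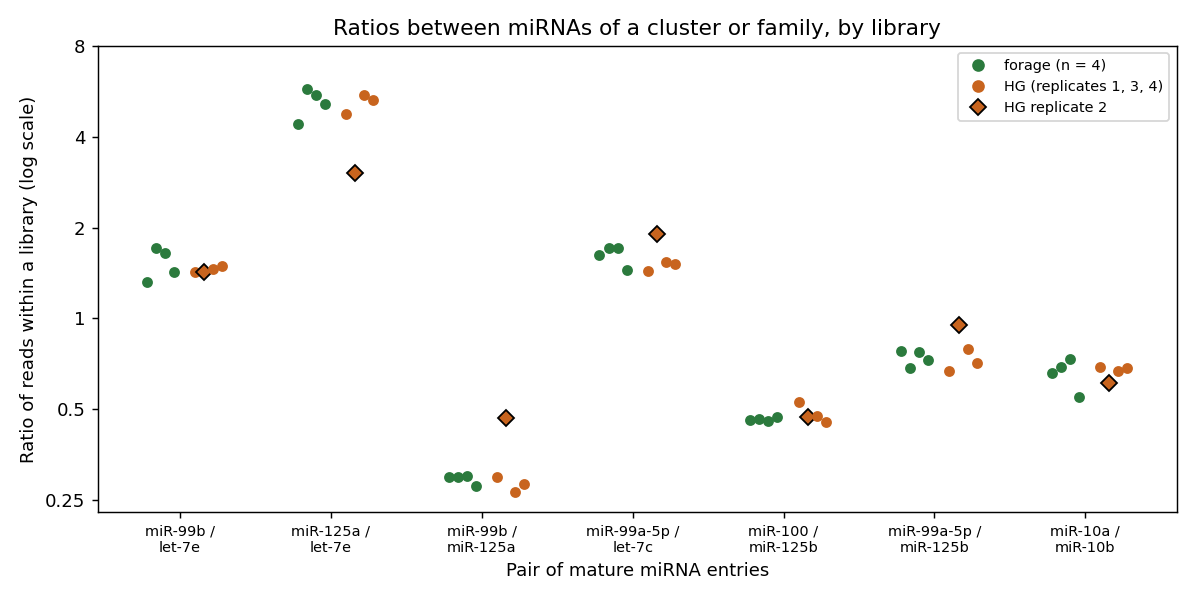
Ratio of reads of 2 entries within a library (y axis, log scale) for 7 pairs (x axis), 1 point per library. HG replicate 2 (diamond) lies outside the other libraries for miR-125a to let-7e, miR-99b to miR-125a, miR-99a-5p to let-7c and miR-99a-5p to miR-125b, and within them for miR-99b to let-7e, miR-100 to miR-125b and miR-10a to miR-10b.

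The correlations of members with each other show how much HG replicate 2 sets them. On log2 TMM-normalized CPM, bta-miR-99a-5p and bta-miR-99b had r = 0.963 over 8 libraries and 0.630 over the 7 without it. Bta-miR-10b and bta-miR-99b had 0.960 and 0.634, and bta-miR-10a and bta-miR-10b 0.811 and 0.138. For bta-miR-99b and bta-miR-125a the sign turned, from −0.395 to 0.566. The miR-125 pair had only 0.378 and 0.285.

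The candidates for likeness in pattern were 118 other bovine entries with at least 1000 reads in all and with reads in every library. None had the same counts as a member in all 8 libraries, but reads shared in part were not checked. The entry most like each member was named by the highest Pearson r over the 8 libraries. For bta-miR-99a-5p this was bta-miR-143, a miRNA of smooth muscle and fibroblasts, with 0.987, and it stayed the most alike without HG replicate 2 (0.908). For bta-miR-99b it was bta-miR-126-3p, an endothelial miRNA (0.978, 0.780 without that library), for bta-miR-10a bta-miR-30d (0.964 and 0.878) and for bta-miR-10b bta-miR-151-3p (0.985 and 0.892). Bta-miR-125b was most like bta-miR-2285bf (0.898 and 0.891) and bta-miR-125a most like bta-miR-101 (0.917 and 0.898). Bta-miR-100 had no close match over the 8 libraries, at most 0.685 with bta-miR-2285bf, but 0.954 with bta-miR-29b over the 7 (0.563 over the 8). Without that library the entry most alike changed for 4 of the 7 members. It was bta-miR-9-5p for bta-miR-10b (0.938 over the 7 libraries, −0.644 over the 8), bta-miR-27b for bta-miR-125a (0.945 and −0.519), bta-miR-30e-5p for bta-miR-99b (0.812 and 0.959) and bta-miR-29b for bta-miR-100. The points share the 8 libraries and their scaling, and the second most alike entries had values of 0.671 to 0.982 over the 8.

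Each entry is the sum of several distinct read sequences, which differ at their ends or by mismatches, and their number per library is also listed. It was lowest for bta-miR-99b, with a median of 12 and a range of 7 to 13, and highest for bta-miR-125b, with a median of 27 and a range of 19 to 41. Bta-miR-100, with a median of 13 distinct sequences, had more reads than bta-miR-10a and bta-miR-10b with medians of 18 and 22. Bta-miR-99a-5p had a median of 24.5 and bta-miR-125a one of 26. Summed over the 7 miRNAs, HG replicate 2 had 103 distinct sequences and the others 120 to 180. It was lowest or tied for the lowest in 6 of 7 members, beside 142 of 243 other bovine entries (58.4%), which also had fewer in all (4044 against 4266 to 5754). Summed over the 7 miRNAs, the reads per distinct sequence were 44.6 in HG replicate 2, within the 35.3 to 46.5 of the others. For single members, bta-miR-10b had 42.1 in that library against 22.35 to 28.9 in the others. Bta-miR-99b had 57.1 against 23.5 to 37.0 and bta-miR-99a-5p 53.8 against 32.5 to 46.4. Bta-miR-10a, bta-miR-100, bta-miR-125a and bta-miR-125b lay within the range of the others.

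**Figure D5:**
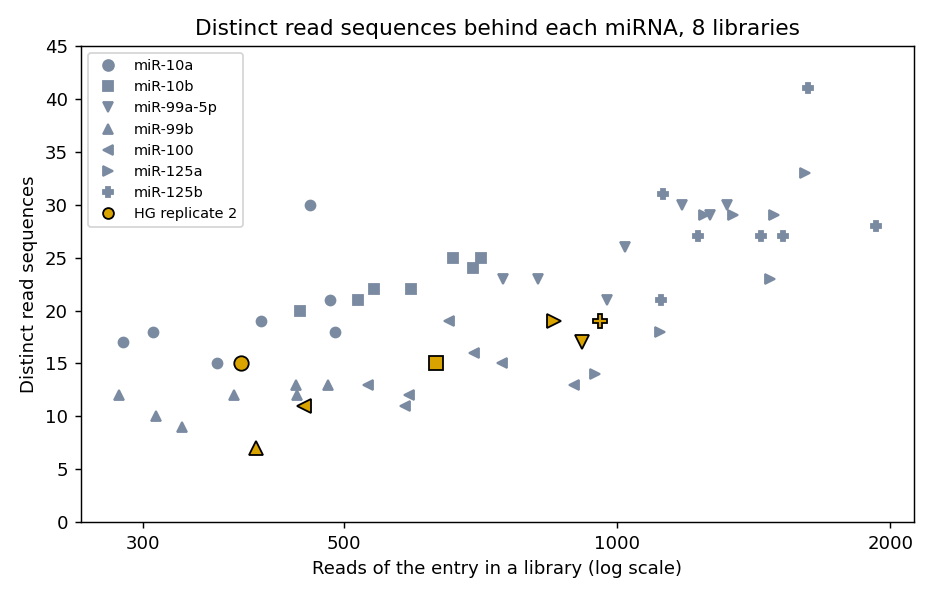
Number of distinct read sequences (y axis) against reads (x axis, log scale) for each miRNA in each of the 8 libraries, with HG replicate 2 in yellow. MiR-99b and miR-100 lie lowest for their reads, and the points of HG replicate 2 lie at the lower edge for 6 of 7 miRNAs.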

How the data were processed

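RNA of rumen fluid was made into libraries with the NETflex small RNA kit and sequenced as 8 libraries, 4 per diet. The authors demultiplexed the reads with bcl2fastq 2.20, trimmed adapters with Skewer, and assigned the remaining reads with sRNAbench and Bowtie to bovine and human miRNAs of miRBase release 22 on the genome build UMD3.1. For each library the authors deposited the read count of every mature miRNA entry, with no division of reads that fit more than 1 entry, and the count of distinct read sequences. The deposited expected count divides such a read by its number of entries. The deposited RPM relative to all reads was used to recover the total of a library, and a deposited score, RPM relative to miRNA reads, to recover its miRNA reads. A table of normalized signal that the authors deposited (DESeq2 size factors) served as an alternative. Expected counts were rounded to whole reads for count tests.

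Entries that reached 10 reads in some library were kept. Diet and cow were tested on the read counts with edgeR 4.0.16 in R 4.3.3 (TMM normalization, quasi-likelihood test, two-sided, Benjamini-Hochberg adjustment over 377 entries, threshold 0.05), with terms for cow and diet after the study's own model, and with DESeq2 1.42.0 as an alternative. The edgeR diet test was checked on simulated data. Shares and ratios of single values were compared by exact permutation over cows. Python 3.11.15 with numpy 2.4.6, pandas 2.3.3, scipy 1.17.1 and matplotlib 3.10.9 did the rest. Pairing by cow follows the library numbers, from the labels and the design. Libraries 1 to 4 of forage, less the forage mean, correlated with those of HG, less the HG mean, at 0.00, −0.06, 0.06 and 0.01, which does not show the pairing by itself. Each library is 1 sample of 1 cow, so that the spread left after the cow terms holds the responses of 4 cows and the library preparation together.

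The members and all lists were chosen with earlier results of these data known. All members are named, with their homologous entries, opposite arms, cluster neighbours, HOX cluster miRNAs and the entries most alike in pattern (Pearson r on log2 TMM-normalized CPM, candidates of at least 1000 reads). Mature sequences were not used here.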

Additional observations from a re-analysis of the deposited data

Results flagged for a closer look

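Dixon's criterion for a single sample far from the others of its group (at the 95% level, for 4 libraries) was passed in 2 of 30 groups of values checked, where chance passes about 1 in 20. The log2 ratio of bta-miR-99b to bta-miR-125a was −1.85 in forage replicate 4 (−1.8454), with −1.75 to −1.73 in the other 3 forage libraries. The summed share of the 7 miRNAs was 1.36% (1.3597) in forage replicate 1, with 1.42% in each of the other 3 (1.4158 to 1.4221). Both gaps were small in size, as these forage values lie close together.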

How the results depend on the processing

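No member was called for the diet with DESeq2, other size factors (RLE), no filter on low counts, divided reads, bovine entries only, no replicate block, the same without HG replicate 2, or a replicate left out in turn. Nor was one called for the cow in the same alternatives that keep the block. Over all entries the calls for the diet, and likewise those for the cow, ran from 0 to 2 with a replicate left out. The 2 came without replicate 2, and the cause was not tested. Without the replicate block, that is without pairing by cow, the diet calls stayed at 0 and bta-miR-10a had a log2 fold change of 0.19, so that the block changed no call. Bta-miR-10a kept its positive sign in all 11 alternatives (0.07 to 0.31, with an unadjusted p of 0.0461 and an adjusted p of 0.795 in edgeR without replicate 3). For the others the sign turned at values near 0. With a replicate left out, the log2 fold changes ran from −0.0034 to 0.24 for bta-miR-10b, −0.0011 to 0.12 for bta-miR-99a-5p, −0.028 to 0.23 for bta-miR-99b, −0.0454 to 0.14 for bta-miR-100, −0.0292 to 0.0277 for bta-miR-125a and −0.0542 to 0.0727 for bta-miR-125b. Without the block and HG replicate 2, bta-miR-99a-5p had −0.0004 and bta-miR-99b −0.0185. Bta-miR-125a had −0.0114 in DESeq2, −0.0115 with RLE, −0.0083 without the filter, −0.0219 with divided reads and −0.0023 among bovine entries. Bta-miR-125b had −0.0009 in DESeq2 and with RLE and −0.0113 with divided reads.

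The difference in summed share ran from −0.0131 to 0.0492 percentage points with a replicate left out, negative without replicate 1 and without replicate 4 (−0.0022). With divided reads it was 0.0281 percentage points and in the authors' normalized values 174 reads higher on HG. As a share of all reads it was −520 RPM, and the share of miRNA among all reads differs between the libraries (6.67% to 29.3%). With a replicate left out, the differences in log2 ratio ran from −0.29 to 0.0496 for bta-miR-125a to bta-let-7e, −0.0528 to 0.23 for bta-miR-99b to bta-miR-125a, −0.09 to 0.0212 for bta-miR-99a-5p to bta-let-7c, −0.0732 to 0.16 for bta-miR-99a-5p to bta-miR-125b and −0.0822 to 0.0821 for bta-miR-10a to bta-miR-10b. The positive value for bta-miR-125a to bta-let-7e and the negative values for bta-miR-99b to bta-miR-125a and bta-miR-99a-5p to bta-miR-125b came without replicate 2, and the negative one for bta-miR-10a to bta-miR-10b without replicate 4. For bta-miR-99a-5p to bta-let-7c the sign also turned without replicate 3 (0.0153) and with divided reads (0.0343). Without pairing and HG replicate 2 (for shares and ratios chosen after seeing the data), bta-miR-99b to bta-miR-125a had −0.0599 and bta-miR-99a-5p to bta-miR-125b −0.0357. The paired permutation cannot give a p below 0.05 with 4 cows or with 3. The unpaired exact permutation of 4 against 4 libraries can, and gave p from 0.31 to 0.83 for the ratios and 0.629 for the summed share. With 282 to 1930 reads per value, counting gives an error of 2.70% to 5.21% on average, and the spread between libraries was up to 10.1% without HG replicate 2.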
